A study of Rattus norvegicus with 48 samples.

Results

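The neuronal immediate-early genes Fos, Fosb, Junb, Egr1, Egr2, Egr4, Arc, Npas4, Nr4a1 and Nr4a3 were followed over all groups of cultures. They were taken by name, 10 of the 30211 genes of the deposited table, and each of the 10 was among the 15890 genes that had enough reads to be tested. RNA-seq had been performed on mixed cortical cultures from Sprague-Dawley rat fetuses of 18 days, which were 21 days in vitro when they were used, in 16 groups of 3 libraries and 48 in all. Cultures were left untreated (Control) or received cocaine (25 µM for 24 h), the HIV-1 transactivator protein Tat (6 ng/mL for 48 h) or both (Tat-Cocaine). Others were given 1 of 4 small molecules for 48 h, by itself, with Tat, or with Tat and cocaine, which gives the remaining 12 groups. The molecules were Amlexanox (25 µM), an inhibitor of the kinases TBK1 and IKKε, Tazemetostat (3 µM), an inhibitor of the histone methyltransferase EZH2, 4OI (250 µM), a cell-permeable ester of itaconate, and Senicapoc (1 µM), a blocker of the potassium channel KCa3.1. The study's methods have cocaine added after the 48 h with Tat, so that cultures with both may have been kept 24 h longer than those with Tat, and the cocaine and this added time cannot be told apart in these pairs. No group received cocaine and a small molecule without Tat. The labels name the cells neurons, but the cultures were mixed, and marker genes of astrocytes, microglia, oligodendrocytes and endothelial cells were detected alongside those of neurons, with 0 of the markers in the table at 0 in all libraries. The labels do not say whether the 3 cultures of a group came from separate preparations, so that p-values measure the spread between these cultures, which may be technical.

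Immediate-early genes are transcribed within minutes of a stimulus without new protein synthesis. In neurons, calcium entering through glutamate receptors and voltage-gated channels activates kinases that phosphorylate CREB, SRF with its partners and MEF2, and these factors switch the genes on. Fos, Fosb and Junb encode subunits of the AP-1 transcription factor, Egr1, Egr2 and Egr4 zinc finger transcription factors, Nr4a1 and Nr4a3 orphan nuclear receptors, Npas4 a transcription factor that responds to calcium influx and acts on inhibitory synapses, and Arc a cytoskeleton-associated protein that promotes removal of AMPA receptors from synapses. Junb, Fos and Egr1 are also induced in glia by cytokines and growth factors, whereas Npas4 is largely restricted to neurons.

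The start of Egr4 and that of Junb are shown since the first fell with cocaine and the second did not, as described below. The 2 sequences illustrate matches to a known site, and its part in that difference was not tested. Each is the 250 bases before the transcription start in RefSeq (build GRCr8), with TGACG, the core of the site bound by CREB, read on either strand, in capitals. Egr4 is read on the minus strand at chr4:119607818-119608067 and Junb on the plus strand at chr19:40080876-40081125.
Egr4: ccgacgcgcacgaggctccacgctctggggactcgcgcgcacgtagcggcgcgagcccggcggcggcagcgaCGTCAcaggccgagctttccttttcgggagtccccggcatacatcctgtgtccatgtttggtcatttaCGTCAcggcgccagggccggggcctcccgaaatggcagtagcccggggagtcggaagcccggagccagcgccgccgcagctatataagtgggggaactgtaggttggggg
Junb: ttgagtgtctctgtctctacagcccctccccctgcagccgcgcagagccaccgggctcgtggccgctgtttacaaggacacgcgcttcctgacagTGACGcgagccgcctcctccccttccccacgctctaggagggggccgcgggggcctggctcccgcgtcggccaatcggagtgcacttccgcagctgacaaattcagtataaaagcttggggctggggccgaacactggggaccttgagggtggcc
Egr4 held 2 matches, which began 110 and 178 bases before the start, and both could be extended to TGACGT. Junb held 1, 155 bases before the start, that could not. Of the 33469 promoters of the RefSeq table, 18.2% held TGACG in the same window and 6.95% TGACGT, whose matches are also matches to TGACG. An entry was found for 7 of the 10 genes. Nr4a1 had 4 matches to TGACG, Egr1 had 2 and Egr2 had 1, and for Fosb and Npas4 0 were found. Those of Egr1 and Egr2 could all be extended to TGACGT, and those of Nr4a1 could not. Egr1 and Egr2 were not called with cocaine below, whereas Nr4a1, Fosb and Npas4 fell. The CArG box, the element bound by SRF, was found in 1.5% of all promoters, and among the 7 genes 2 times in Egr1 and 1 time in Egr2. These are matches of letters and do not show that a factor was bound.

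Expression is given as CPM, the counts of a gene scaled to a common library total by the authors with the TMM method. Since CPM is not divided by transcript length, levels are compared between groups and not between genes. Libraries held 17.5 to 29.1 M reads on genes (median 22.4 M), 1 read being worth 0.0334 to 0.0583 CPM. At this depth Npas4, which had the lowest single value of the 10, was covered by 3 to 593 reads per library, so that its low values are also subject to counting error. Of the Cocaine libraries 2 stood apart in their marker genes. The first had more neuron marker RNA than the others, and in the third the sum of 10 oligodendrocyte markers was 25920 CPM, against 1704 and 2129 CPM in the other 2 and 859 to 2175 CPM in Control.

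The genes differed in how far their level ranged over the 16 groups. Npas4 ranged over 65.2-fold, from a mean of 0.266 CPM in Tat-Cocaine-4OI to 17.3 CPM in Tat-Senicapoc. Egr4 (15.5-fold), Fosb (13.8-fold) and Arc (11.9-fold) also had wide ranges. For Nr4a3 and Nr4a1 the range was 5.90-fold and 5.82-fold, and for Egr1, Junb, Fos and Egr2 it was 2.63-, 2.55-, 2.29- and 2.27-fold. The 4 genes with the widest ranges were also the ones that varied most between cultures of a group. Their standard deviation within groups on the log2 scale was 0.78 for Npas4, 0.75 for Arc, 0.58 for Fosb and 0.57 for Egr4, against 0.23 for Fos, 0.24 for Junb and a median of 0.21 over all tested genes.

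When the groups were ordered by level, the 6 groups with cocaine were the 6 lowest for Egr4 and for Nr4a1, and 5 of them were among the 6 lowest for Fos, Fosb and Nr4a3. For Arc, Npas4 and Egr1 there were 4, for Egr2 3 and for Junb 1. At the upper end, Amlexanox cultures had the highest mean of Fos, Egr2, Nr4a1 and Nr4a3, Senicapoc cultures that of Egr4 and Arc, Tat-Senicapoc cultures that of Fosb and Npas4, and 4OI cultures that of Egr1. Junb had another order, with Tat-Cocaine-Tazemetostat highest (178 CPM) and the groups 4OI, Control and Cocaine lowest (93.3, 86.3 and 69.8 CPM). Neighbouring groups in these orders mostly could not be told apart. Libraries of neighbours overlapped in 15 of 15 neighbour pairs for 7 genes and in 14 of 15 for Arc, Npas4 and Nr4a1.

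Averaged over the 10 genes, on the log2 scale and relative to the mean of each gene over all libraries, the 3 highest groups were Amlexanox (0.90 ± 0.50, SD, n = 3), Senicapoc (0.89 ± 0.27) and Tat-Senicapoc (0.89 ± 0.30). Control stood at 0.13 ± 0.32 and Tat at -0.01 ± 0.34. The 6 groups with cocaine were the 6 lowest, from Tat-Cocaine (-0.25 ± 0.43) down to Tat-Cocaine-Tazemetostat (-0.89 ± 0.13) and Tat-Cocaine-4OI (-1.01 ± 0.15). The sum of 16 neuron markers did not follow the same order throughout. It was lowest in Tat-Cocaine-Tazemetostat (mean 1733 CPM) and high in Senicapoc (5412 CPM) and Amlexanox (5267 CPM), but Tat-4OI cultures had 4472 CPM and a mean of the 10 genes of -0.04, while Tazemetostat cultures had 3687 CPM and a mean of 0.46.

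**Figure D1:**
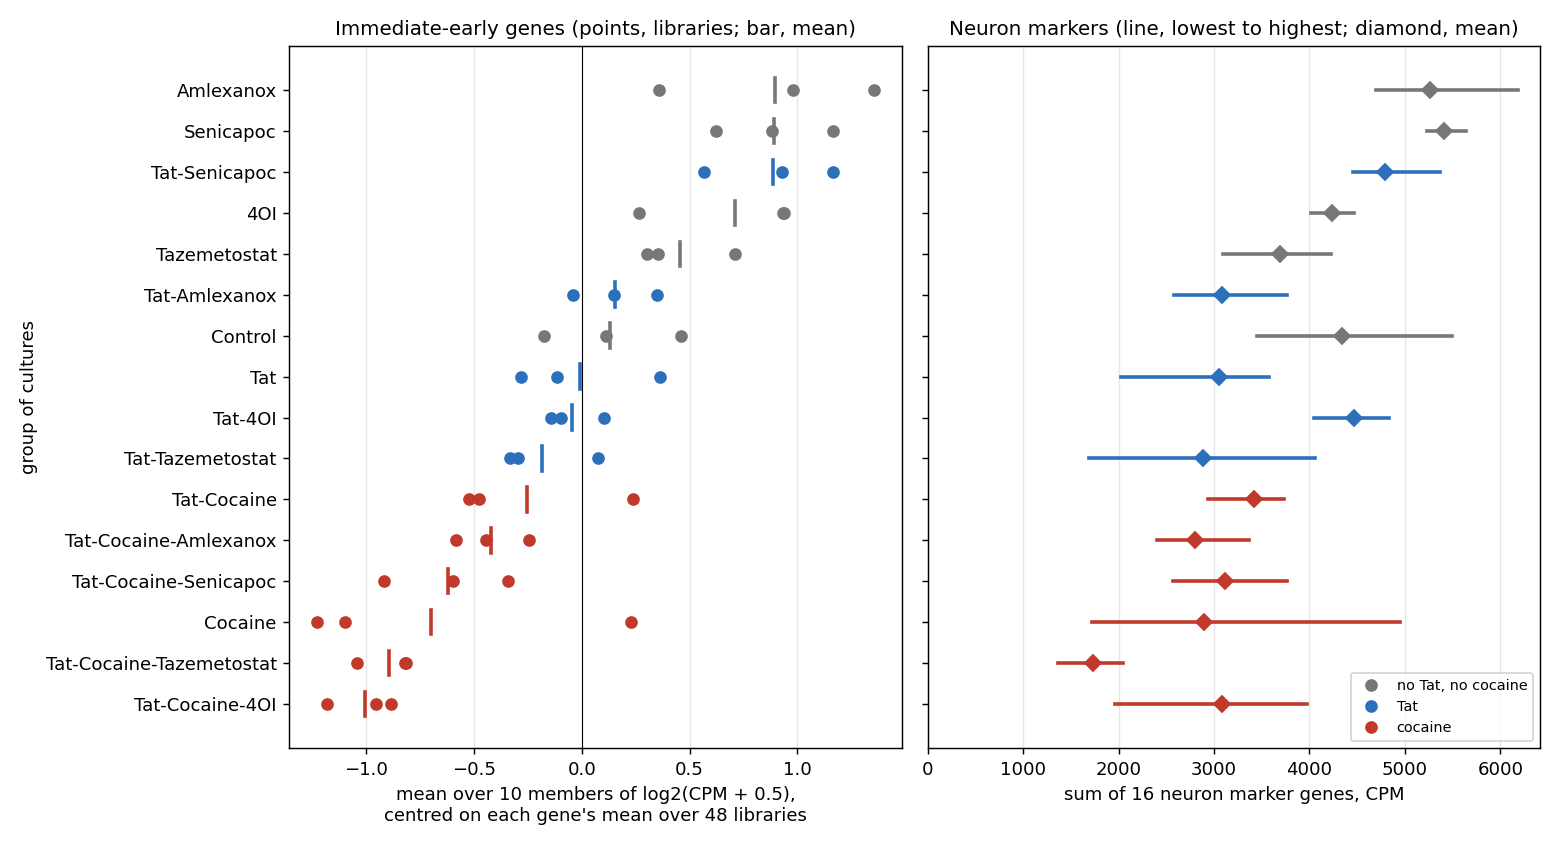
Left, mean over the 10 immediate-early genes of log2(CPM + 0.5), centred on the mean of each gene over 48 libraries, for each library (points) and group (vertical bars). Right, sum of 16 neuron marker genes in CPM, as the mean (diamonds) and the range from the lowest to the highest of 3 libraries (lines). The 6 groups with cocaine (red) lie at -0.25 and below on the left, and their mean neuron marker sums lie between 1733 and 3420 CPM on the right.

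The deviations of the libraries from their group means were related between the genes. Over 48 libraries, Pearson's r between 2 genes had a median of 0.51 over the 45 pairs and was highest for Egr4 with Npas4 (0.87), Arc with Npas4 (0.85) and Fosb with Npas4 (0.84). It was lowest for Junb with Arc (-0.39) and Junb with Egr4 (-0.34). These coefficients are a description of 48 libraries in which the genes of a library share its cell composition and its depth.

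To ask what cocaine did in cultures that had received Tat, the 5 groups with Tat and cocaine were compared with the 5 groups with Tat, each with the same small molecule or none. Over these 5 pairs, 7 of the 10 genes fell with cocaine, namely Npas4, Egr4, Nr4a1, Fosb, Arc, Nr4a3 and Fos, and Junb, Egr1 and Egr2 did not pass the test. The median log2 fold change of the 10 genes was -1.04, against 0.01 for all 15890 genes. Of all tested genes 2.91% fell (462 genes) by the same rule, which was an adjusted p under 0.05 in limma on log2(CPM + 0.5), with the Benjamini-Hochberg procedure, for the mean of the 5 pairs. Over the 5 pairs together the sum of 16 neuron markers was also lower with cocaine (mean 2831 CPM against 3657 CPM). In the Tat pair it was not (3420 CPM with cocaine, 3057 CPM without). In bulk libraries fewer neurons and less RNA of these genes per neuron cannot be told apart.

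Npas4 showed the largest fall of the 10. In Tat cultures it had 8.72, 3.31 and 4.49 CPM without cocaine and 2.34, 2.09 and 8.09 CPM with it. In Tat-Amlexanox cultures the values were 3.67, 4.67 and 7.24 CPM, and in Tat-Cocaine-Amlexanox cultures 1.35, 1.80 and 2.51 CPM. In the first of these pairs the libraries overlapped because of the third Tat-Cocaine library, and in the second they did not. With Tazemetostat, Npas4 had 2.12, 1.23 and 4.21 CPM in the presence of Tat and 0.483, 0.255 and 0.564 CPM after addition of cocaine. With 4OI it had 5.40, 2.69 and 2.58 CPM and, with cocaine, 0.374, 0.175 and 0.248 CPM. With Senicapoc it had 11.46, 24.4 and 16.2 CPM and, with cocaine, 1.60, 1.04 and 2.56 CPM. All 3 libraries with cocaine were below the 3 without it in these 3 pairs as well. The mean log2 fold change over the 5 pairs was -1.73 (SE 0.27, adjusted p = 0.000196), which is a level of 0.301 of that without cocaine on the scale of CPM + 0.5.

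Nr4a1 was the gene in which the libraries were separated most fully. It had 22.7, 14.4 and 17.1 CPM in Tat cultures and 11.1, 12.9 and 12.0 CPM in Tat-Cocaine cultures. The 15 libraries with Tat and without cocaine lay between 13.4 and 34.4 CPM (median 17.6), and the 15 with both between 5.01 and 12.9 CPM (median 8.56). The 2 sets of libraries did not overlap, either within a pair or over all pairs together. Its log2 fold change was -1.12 (SE 0.12, adjusted p = 1.24e-06).

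Nr4a3, its relative, had 8.13 to 27.2 CPM without cocaine (median 15.8) and 3.15 to 14.03 CPM with it (median 8.003). The log2 fold change was -1.01 (SE 0.16, adjusted p = 0.000249). Unlike those of Nr4a1, libraries of Nr4a3 overlapped in the Tat pair and the Amlexanox pair.

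Egr4 had 6.89, 1.56 and 4.30 CPM in Tat and 1.92, 1.60 and 3.95 CPM in Tat-Cocaine cultures. In Tat-Tazemetostat cultures it had 2.93, 2.46 and 4.36 CPM, and in Tat-Cocaine-Tazemetostat cultures 0.821, 0.662 and 0.940 CPM, the lowest group of all. In Tat-Senicapoc cultures it had 9.58, 9.64 and 9.19 CPM, and 2.81, 1.33 and 3.30 CPM when cocaine was added. Only in the Tat pair did the libraries overlap, the lowest Tat library lying below the 3 libraries with cocaine. Egr4 fell by 1.32 on the log2 scale (SE 0.20, adjusted p = 0.000125).

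Egr1 and Egr2 did not follow Egr4, although the 3 encode proteins of 1 family. Egr1 had 31.8 to 70.4 CPM without cocaine and 29.3 to 59.9 CPM with it (medians 44.3 and 42.5), a log2 fold change of -0.08 (95% confidence interval -0.26 to 0.11, adjusted p = 0.68). Egr2 had 2.41 to 6.58 and 2.51 to 5.05 CPM (medians 3.82 and 3.66), a log2 fold change of -0.07 (interval -0.35 to 0.21, adjusted p = 0.82). For both genes the intervals leave room for a small change in either direction.

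Of the AP-1 subunits, Fosb fell by 1.12 on the log2 scale (SE 0.20, adjusted p = 0.00113). It had 4.41, 3.45 and 3.97 CPM in Tat and 3.53, 2.78 and 9.34 CPM in Tat-Cocaine cultures, so that in this pair its mean was higher with cocaine. In the other 4 pairs, each of the 3 libraries with cocaine was lower than each without, the Senicapoc pair having 10.2, 22.1 and 11.03 CPM without cocaine and 1.90, 0.912 and 2.20 CPM with it. Fos fell less, by 0.46 (SE 0.08, adjusted p = 0.00129), from 26.8 to 72.4 CPM (median 36.6) without cocaine to 24.0 to 44.9 CPM (median 26.9) with it. Junb, the partner of both, had 98.6 to 193 CPM and 118 to 189 CPM (medians 154 and 152). Its log2 fold change was -0.01 (interval -0.18 to 0.17, adjusted p = 0.98). The sign of the Junb value changed with the libraries used and carries no direction.

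Arc had 3.74 to 31.7 CPM without and 1.38 to 12.7 CPM with cocaine (medians 7.81 and 3.52). It fell by 1.07 on the log2 scale (SE 0.26, adjusted p = 0.0155), with the largest p-value of the 7 genes called.

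**Figure D2:**
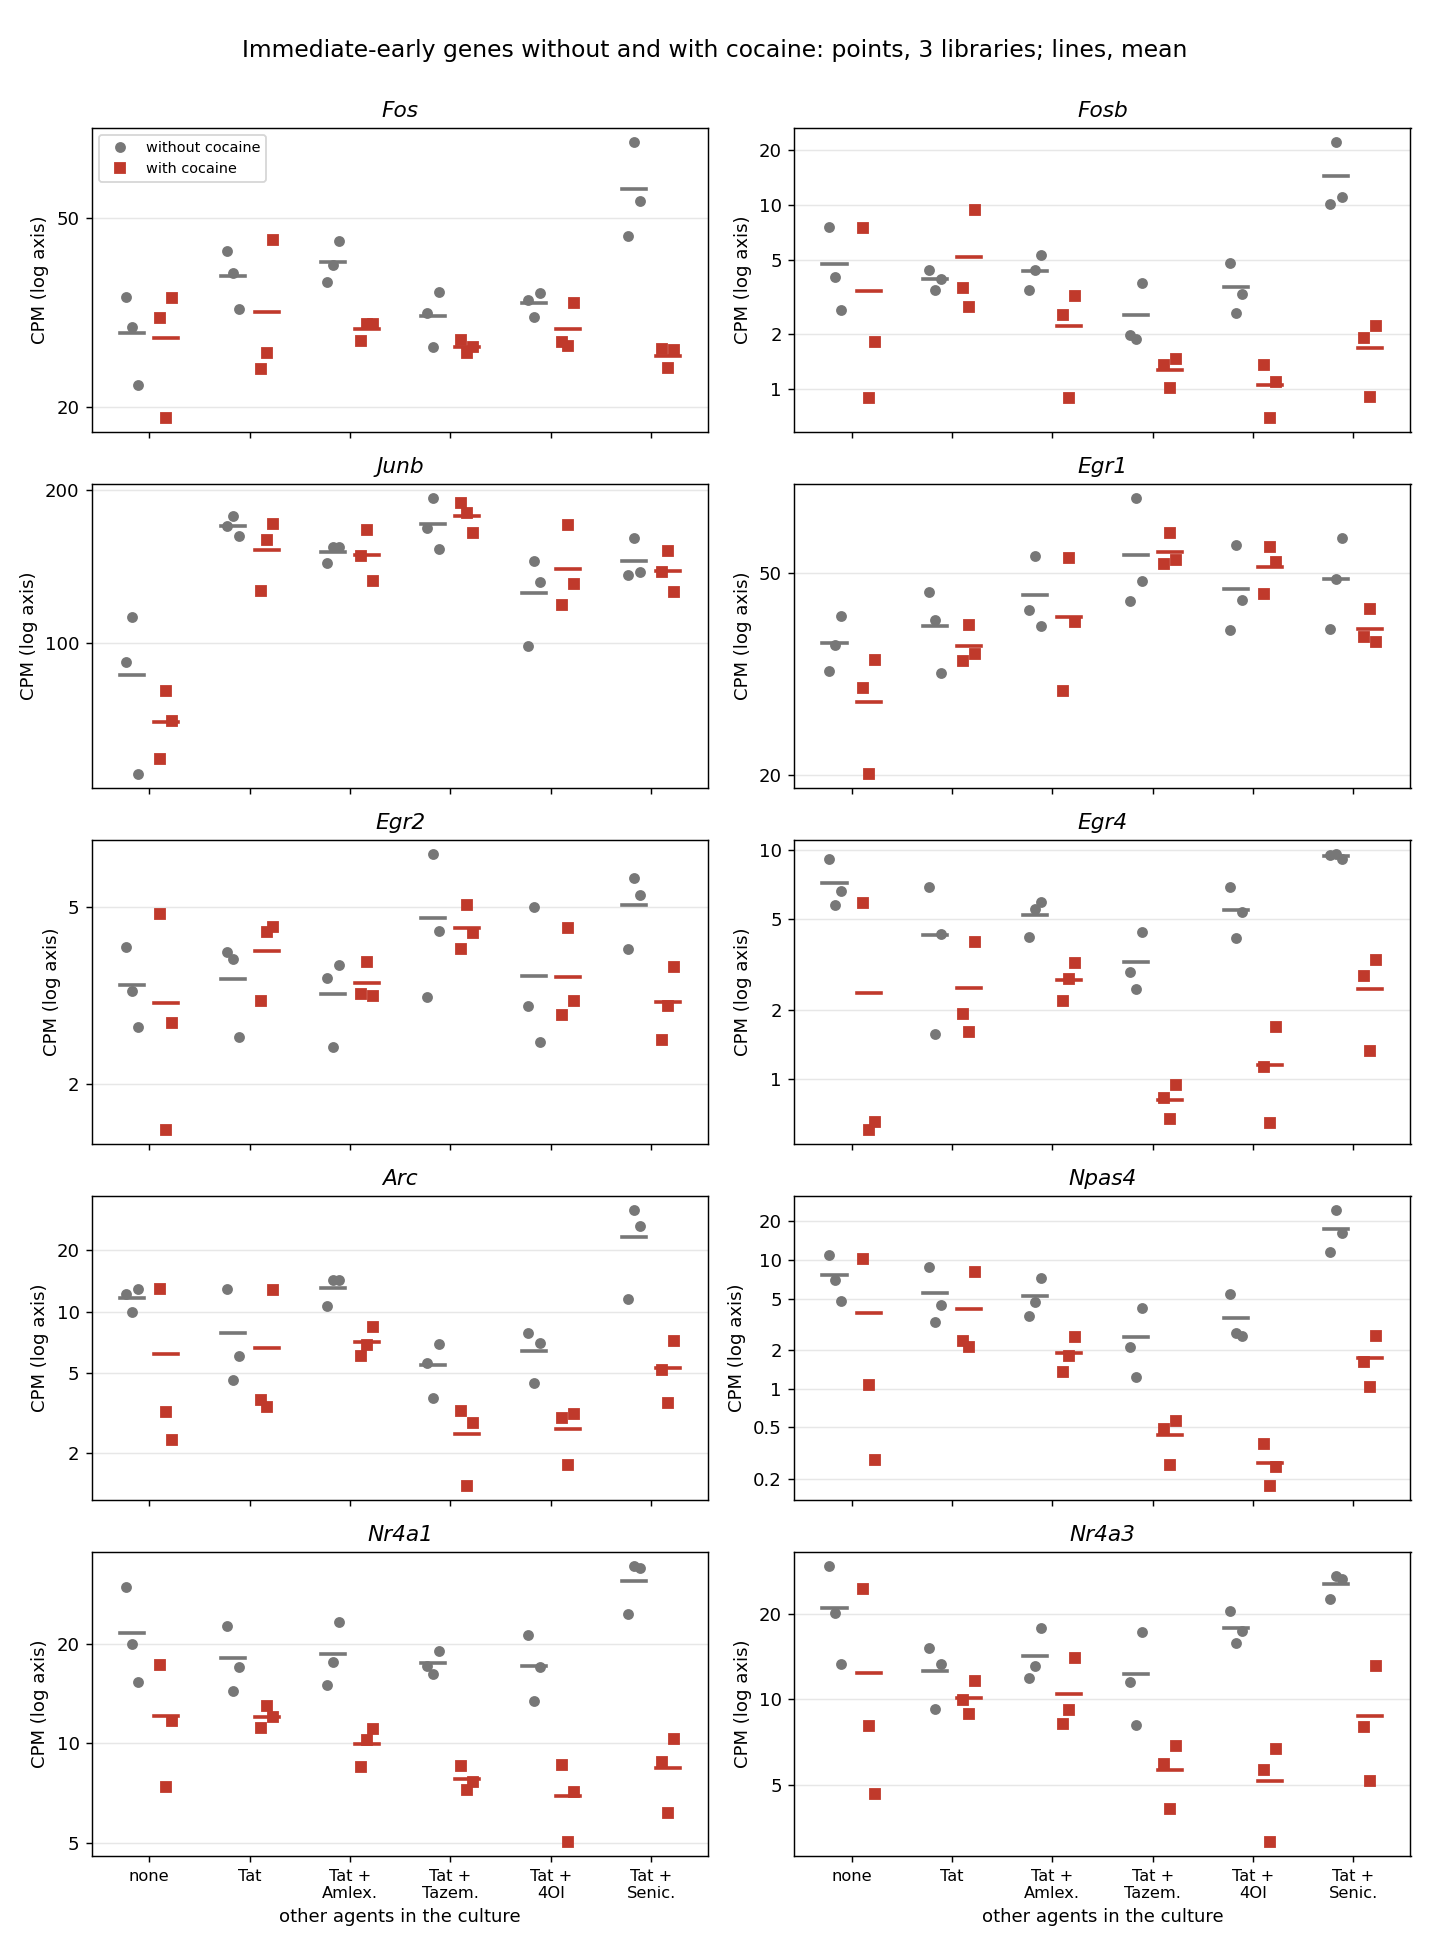
CPM of each gene (log axis, 1 panel per gene) in cultures without cocaine (grey circles) and with cocaine (red squares), for cultures with no other agent and for the 5 pairs with Tat. Amlex., Tazem. and Senic. stand for Amlexanox, Tazemetostat and Senicapoc, points are the 3 libraries of a group and short lines their mean. For Nr4a1 the red squares lie below the grey circles in each of the 5 pairs with Tat, whereas for Junb and Egr1 they are mixed.

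The number of libraries without overlap gave a similar picture. Egr4, Fosb, Arc and Npas4 had the 3 libraries with cocaine below the 3 without in 4 of the 5 pairs, and Nr4a1 in 5 of 5. Of all tested genes 0.39% (62) did so in at least 4 pairs. Nr4a3 did so in 3 pairs, Fos in 2, Egr2 in 1, and Junb and Egr1 in 0.

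The 5 pairs contributed unequally. Leaving out the Senicapoc pair reduced the count of genes called from 7 to 4, as Fos (log2 fold change -0.29, adjusted p = 0.18), Fosb (-0.72, 0.17) and Arc (-0.84, 0.22) were no longer called, while leaving out any other pair left 6 or 7. Arc was also lost without the Tazemetostat pair (adjusted p = 0.053) or without the 4OI pair (0.066). Without the Senicapoc pair 67 of all genes were called lower.

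Tested 1 pair at a time, with the spread still estimated over all 48 libraries, few genes passed the threshold. In the Tat pair 0 of the 10 genes were called by limma, against 0.0189% of all genes, and 0 had an unadjusted p under 0.05, against 8.16% of all genes. The median of the 10 log2 fold changes was -0.29. One gene, Nr4a1, had all 3 libraries with cocaine lower, as did 6.19% of all genes. Without the third Tat-Cocaine library, which had the highest Npas4, Fosb and Arc of its group, the median was -0.46, and 0 genes were called, with 5 calls among all genes. That library was singled out for its high values, so that a lower median without it was fixed in advance. Over the 6 fits that each left out 1 library of this pair, the median ranged from -0.46 to -0.11.

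In the Amlexanox pair the median was -0.65. In limma 0 of the 10 were called (0% of all genes), and 3 had an unadjusted p under 0.05 (1.62% of all genes), namely Fos, Fosb and Nr4a1. Without overlap were 6 of the 10, against 3.34% of all genes. In the Tazemetostat pair the median was -0.87, 0 were called (0% of all genes) and 4 had an unadjusted p under 0.05 (8.59% of all genes). Again 6 were without overlap, against 5.7% of all genes.

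In the 4OI pair the median was -1.20, and 0 were called in limma (0% of all genes), with 5 at an unadjusted p under 0.05 (9.27% of all genes). The values nearest to the threshold were those of Nr4a3 (log2 fold change -1.75, SE 0.36, adjusted p = 0.076) and Nr4a1 (-1.26, SE 0.27, adjusted p = 0.099). Without overlap were 6 of the 10, against 8.34% of all genes. In this pair the replicate numbers paired the cultures. When the fit to 48 libraries took these numbers as a block, 3 genes were called in limma, with 13 called among all genes. They were Nr4a1 (adjusted p = 0.023), Nr4a3 (0.035) and Egr4 (0.037). That block is 1 effect shared by all 16 groups, whereas pairing held in only 8 of 23 comparisons, so that it does not model the pairing of these cultures. With a block within the 2 groups alone 0 were called.

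In the Senicapoc pair 4 of the 10 genes were called, against 0.183% of all genes (29). They were Fos (log2 fold change -1.13, SE 0.19, adjusted p = 0.00227), Fosb (-2.75, SE 0.45, 0.00227), Npas4 (-2.99, SE 0.61, 0.0225) and Nr4a1 (-1.83, SE 0.27, 0.00151). The median was -1.69, and 8 of the 10 were without overlap, against 13.3% of all genes. Fos had 24.1 to 26.5 CPM with cocaine and 45.8 to 72.4 CPM without, its second highest group mean of the 16. The call of Npas4 was lost without the second or the third Tat-Senicapoc library or the first or the second Tat-Cocaine-Senicapoc library (adjusted p from 0.072 to 0.24). In a fit to the 6 libraries of this pair alone 0 of the 10 were called, the adjusted p of the 4 genes lying between 0.065 and 0.083.

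Whether the cocaine effect differed between backgrounds was tested as the difference of the log2 fold changes. Against the Tat pair, 0 of the 10 genes differed in the Amlexanox, Tazemetostat or 4OI pair (0% of all genes each), with 0, 0 and 4 genes at an unadjusted p under 0.05, against 3.69%, 14.9% and 13.4% of all genes. In the Senicapoc pair 0 passed (0.0315% of all genes), and 5 had an unadjusted p under 0.05 (16.6% of all genes). The nearest was Fosb, whose log2 fold change was lower by 2.94 with Senicapoc (SE 0.64, adjusted p = 0.075). Over the 5 pairs together, an F test in limma called 0 genes (0% of all genes). The unadjusted p was under 0.05 for Fosb (0.00134), Fos (0.00566), Nr4a3 (0.0232) and Nr4a1 (0.0283), with an adjusted p of 0.86 for each, and for 4.51% of all genes.

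Without Tat, the 10 log2 fold changes with cocaine were below 0, but 0 of them passed the test, and the libraries of the Cocaine group were far apart. Npas4 had 10.9, 6.96 and 4.77 CPM in Control and 10.2, 1.06 and 0.282 CPM in Cocaine cultures. Egr4 had 9.16, 5.74 and 6.63 CPM in Control and 5.85, 0.595 and 0.643 CPM in Cocaine cultures. In both genes the first Cocaine library was close to Control and the other 2 were far below.

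In all 3 Cocaine libraries, 0 of the 10 genes were called in limma (0.201% of all genes, 32), and 5 had an unadjusted p under 0.05 (12.6% of all genes). Without overlap were 0, against 2.71% of all genes. The median log2 fold change was -0.78, and Egr4 came nearest to the threshold (-1.92, SE 0.45, adjusted p = 0.055). The first library also differed in its neuron markers, whose sum was 4954 CPM against 1996 and 1723 CPM in the other 2 and 3446 to 5493 CPM in Control. Without it, 6 genes were called lower, against 10.9% of all genes called in either direction in that fit, and the median was -1.29. These were Npas4 (-2.79), Egr4 (-2.75), Arc (-1.91), Nr4a3 (-1.62), Fosb (-1.45) and Nr4a1 (-1.12). The first library was singled out with its values near Control known, so that a lower median without it was fixed in advance. Without the third library, the one with high oligodendrocyte markers, 0 were called and the median was -0.56, and without the second 0 were called and it was -0.45. With all 3 libraries, the log2 fold changes of the 10 oligodendrocyte markers were all above 0 (median 1.38), and 0 were called. The part of the neuron and oligodendrocyte markers in these differences was not tested.

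The effect of cocaine with Tat, as the mean of 5 pairs, did not differ detectably from that without Tat. The differences of the log2 fold changes lay between -0.40 (Fos) and 0.60 (Egr4), and 0 genes were called (0% of all genes), with 0 of the 10 at an unadjusted p under 0.05 (6.29% of all genes). The 95% interval for Npas4 was -1.38 to 1.33, which is wide.

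**Figure D3:**
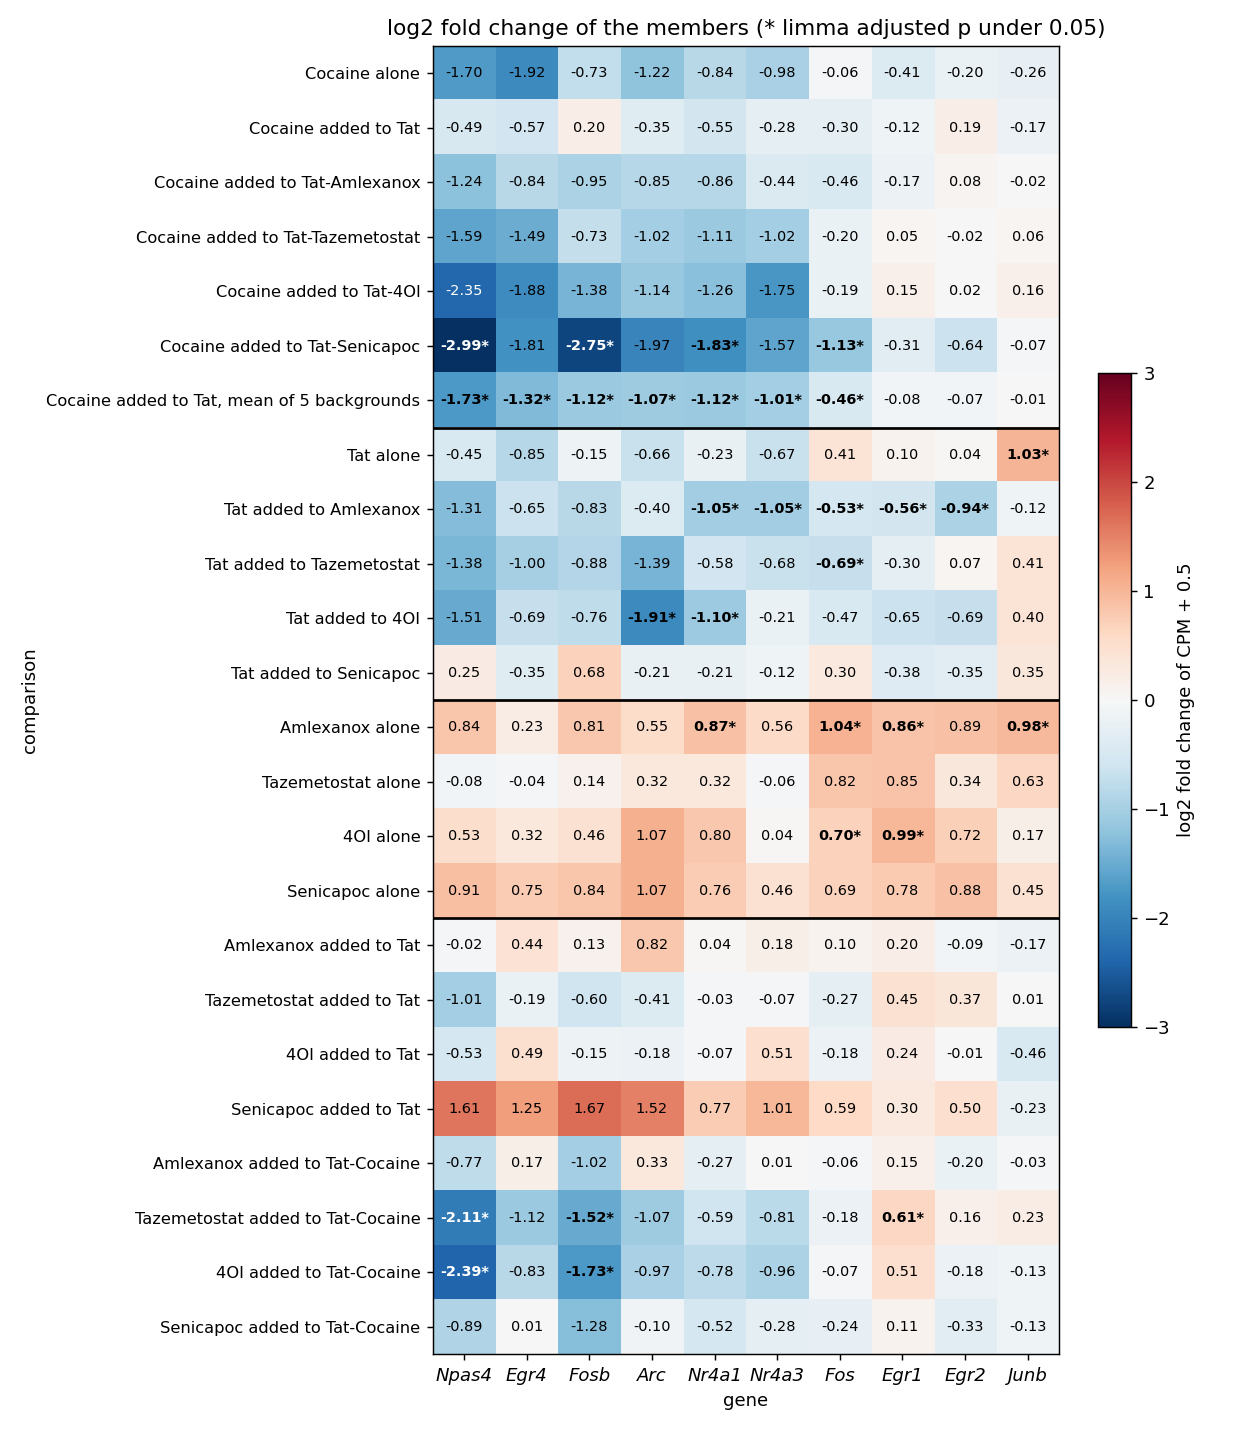
Log2 fold changes of CPM + 0.5 (colour and printed value) of the 10 genes (columns) in 24 comparisons (rows), with cocaine in the first block, Tat in the second, each small molecule by itself in the third and each molecule added to Tat or to Tat and cocaine in the last. Asterisks and bold type mark a limma adjusted p under 0.05. The row for the mean of 5 backgrounds has 7 asterisks.

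With Tat by itself 1 of the 10 genes was called, in a comparison that called 21.3% of all genes. Junb rose, from 91.7, 112 and 55.1 CPM in Control to 170, 177 and 162 CPM in Tat cultures, by 1.03 on the log2 scale (SE 0.19, adjusted p = 0.000156). The 3 Tat libraries were above the 3 Control libraries. In a fit to these 2 groups alone the call was just lost (adjusted p = 0.05025 in limma). The other 9 genes did not pass the test, with log2 fold changes from -0.85 (Egr4, adjusted p = 0.17) to 0.41 (Fos, 0.12). Among 34 other immediate-early genes, 14 rose and 1 fell with Tat, the largest rises being those of Maff (2.07), Gadd45b (2.07), Ier3 (1.51), Btg2 (1.23) and Trib1 (1.19). Per1, a clock gene, was the one that fell (-0.54). Microglial markers moved in the same comparison, as Itgam (1.62), Aif1 (1.65) and Ptprc (1.21) rose and 1 of the 9 markers fell. Of the 9 astrocyte markers Gja1 (-1.14) and Gfap (-0.70) fell, and of the 16 neuron markers 0 were called, with 16 values below 0 and a median of -0.47. The part of these cells in the rise of Junb was not tested.

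Tat was also compared in the presence of each small molecule. In either direction, the share of the 10 genes called was near that of all genes with Amlexanox. It was below that share with Tazemetostat and Senicapoc. In Amlexanox cultures 5 of the 10 were called with Tat, against 39.6% of all genes. Of all 15890 genes, 3589 were called higher and 2701 lower, whereas the 5 genes all fell. These were Fos (-0.53), Egr1 (-0.56), Egr2 (-0.94), Nr4a1 (-1.05) and Nr4a3 (-1.05) in limma. Only 1 was left without the third Amlexanox library, and 2 without the first, or without the first or second Tat-Amlexanox library. In Tazemetostat cultures Fos fell (-0.69, SE 0.19, adjusted p = 0.00983), in a comparison with 16.1% of all genes called, and the call was lost without the second Tat-Tazemetostat library (0.087). In 4OI cultures Arc fell from 37.04, 11.3 and 36.7 CPM to 7.81, 4.46 and 6.96 CPM (log2 fold change -1.91, SE 0.59, adjusted p = 0.0486). Nr4a1 fell too (-1.10, SE 0.27, adjusted p = 0.0145), with 5.18% of all genes called. Both calls in 4OI cultures were lost without the first or the third 4OI library or the second Tat-4OI library, that of Arc also without the first or the third Tat-4OI library, and both in a fit to the 2 groups alone. In Senicapoc cultures 0 were called by limma (16% of all genes), and 0 had an unadjusted p under 0.05 (29.7% of all genes). The 4 comparisons use other libraries than the comparison of Tat with Control, and the difference between them was not tested.

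Cultures with a small molecule but no Tat or cocaine were compared with Control. The median log2 fold change of the 10 genes was above 0 for each of the 4 molecules. It was 0.85 for Amlexanox, 0.61 for 4OI, 0.32 for Tazemetostat and 0.77 for Senicapoc. The study's methods dissolved 4OI in DMSO and name no Control with that solvent, so that 4OI and its solvent cannot be told apart. Solvents of the other molecules are not given. With Amlexanox 4 genes rose, against 11.4% of all genes called in either direction (596 higher). Fos had 34.01, 29.5 and 22.2 CPM in Control and 66.4, 49.7 and 60.5 CPM in Amlexanox cultures (log2 fold change 1.04, SE 0.19, adjusted p = 0.000599). Junb (0.98, adjusted p = 0.00137), Egr1 (0.86, 0.0058) and Nr4a1 (0.87, 0.0349) rose as well. The libraries of Fos, Junb and Egr1 did not overlap with Control. The call of Nr4a1 was lost without the second or the third Control library or the first or the third Amlexanox library, without the filter on low values (adjusted p = 0.052) and with array quality weights (0.12). In the fit to these 2 groups alone 0 were called, with an adjusted p of 0.23 for Fos.

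With 4OI 2 genes rose, against 3.15% of all genes called. They were Egr1, from 32.1, 35.99 and 41.1 CPM to 72.0, 62.8 and 84.4 CPM (log2 fold change 0.99, SE 0.20, adjusted p = 0.00258), and Fos (0.70, SE 0.19, 0.0283). The call of Fos was lost without the second or the third Control library or the first or the third 4OI library. In this comparison the replicate numbers paired the cultures. With the block over 48 libraries, which is shared by all 16 groups, Nr4a1 (0.80, adjusted p = 0.0373) was called as well, with 750 called among all genes. It was not called with a block within the 2 groups (adjusted p = 0.10).

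With Tazemetostat 0 of the 10 genes were called in limma (0% of all genes), but 3 had an unadjusted p under 0.05 (3.62% of all genes). These were Fos (0.82), Egr1 (0.85) and Junb (0.63). With Senicapoc 0 were called (0% of all genes), with 5 at an unadjusted p under 0.05 (8.67% of all genes), and all 10 log2 fold changes were above 0. Each of the 4 molecules was compared with the same 3 Control libraries, so that these sets of values are not independent. Neuron marker sums were 4699 to 6181 CPM in Amlexanox, 5236 to 5646 in Senicapoc, 4017 to 4472 in 4OI and 3094 to 4227 in Tazemetostat cultures, against 3446 to 5493 in Control.

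In cultures with Tat, adding Amlexanox, Tazemetostat, 4OI or Senicapoc called 0 of the 10 genes in limma, where 0.837%, 0%, 15.6% and 0.409% of all genes were called. At an unadjusted p under 0.05 there were 0, 1, 1 and 7 genes, against 12.5%, 5.36%, 31.5% and 18.3% of all genes. Those 7, with Senicapoc, were Fosb (1.67), Npas4 (1.61), Arc (1.52), Egr4 (1.25), Nr4a3 (1.01), Nr4a1 (0.77) and Fos (0.59), and Fosb was nearest to the threshold (SE 0.45, adjusted p = 0.076). Neuron markers in Tat-Senicapoc cultures summed to 4456 to 5366 CPM, against 2027 to 3578 CPM in Tat cultures.

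In cultures with Tat and cocaine, Tazemetostat called 3 of the 10 genes, a share near the 28.7% of all genes called. Npas4 fell from 2.34, 2.09 and 8.09 CPM to 0.483, 0.255 and 0.564 CPM (log2 fold change -2.11, SE 0.61, adjusted p = 0.0146) and Fosb by 1.52 (SE 0.45, 0.0168), while Egr1 rose by 0.61 (SE 0.20, 0.0264). Neuron markers summed to 1367 to 2048 CPM with Tazemetostat and to 2937 to 3733 CPM without it. Microglial markers summed to 1758 to 2830 CPM with it and to 761 to 1239 CPM without, and oligodendrocyte markers to 489 to 792 CPM and 1045 to 2518 CPM. The part of these cell types in the calls was not tested. With 4OI, Npas4 (-2.39, SE 0.61, adjusted p = 0.0121) and Fosb (-1.73, SE 0.45, 0.015) fell, against 7.36% of all genes called in either direction (523 lower). The Npas4 and Fosb calls of both comparisons were lost without the third Tat-Cocaine library. Without the first Tat-Cocaine or the second Tat-Cocaine-Tazemetostat library 0 of the 3 calls with Tazemetostat were left, that of Egr1 was also lost without the second Tat-Cocaine library, and with 4OI Fosb was also lost without the second Tat-Cocaine-4OI library. In fits to the 2 groups alone 6 genes were called with Tazemetostat and 0 with 4OI. These counts have no share of all genes to be set against and are not results about the 10 genes. Amlexanox and Senicapoc called 0 of the 10 in limma (0.925% and 0.0441% of all genes), each with 1 gene, Fosb, at an unadjusted p under 0.05 (-1.02 and -1.28), against 17.8% and 15.5% of all genes.

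The genes around the 10 in the same pathway were examined in the mean of the 5 cocaine pairs. Of 34 other immediate-early genes, 6 fell and 1 rose, and their median log2 fold change was -0.05. Those that fell were Ptgs2 (-0.88), the inducible cyclooxygenase, Rgs2 (-0.68), a brake on G protein signalling, Sik1 (-0.45), a kinase that restrains CREB coactivators, Nr4a2 (-0.41), the remaining nuclear receptor of its family, Plk3 (-0.33) and Per1 (-0.25). Jun, the AP-1 subunit with which Fos most often pairs, rose by 0.25 (SE 0.04, adjusted p = 0.00061), from a mean of 174 to one of 206 CPM.

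Of 17 late activity-regulated genes, which are switched on by the immediate-early factors or by continued activity, 5 fell and 0 rose. Their median was -0.53, and 14 of the 17 values were below 0. The pairs differed, as the median was 0.15 in the Tat pair, where 6 values were below 0 and 1 gene was called higher. It was -0.01 in the Amlexanox pair and -0.81, -0.82 and -1.09 in the Tazemetostat, 4OI and Senicapoc pairs. Bdnf, a neurotrophin, fell by 1.28 (SE 0.32, adjusted p = 0.0162), from a mean of 39.5 to 18.3 CPM. Gpr3 (-1.23), a constitutively active receptor, Crh (-1.21), a neuropeptide, Nptx2 (-0.998), a secreted pentraxin that clusters AMPA receptors, and Vgf (-0.84), a neuropeptide precursor, were the others.

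Of 30 kinases and transcription factors that lie upstream, 2 fell and 0 rose, with a median of 0.00. They were Camk4 (-0.76) and Camk2b (-0.47), both calcium- and calmodulin-dependent kinases of neurons. Of 14 feedback inhibitors, 2 fell, the MAP kinase phosphatases Dusp4 (-1.28, SE 0.20, adjusted p = 0.000146) and Dusp5 (-0.66), with a median of -0.08.

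Markers of neurons moved in the same comparison. Of 16 markers 5 fell and 0 rose, with a median of -0.38 and 15 values below 0. They were Neurod6 (-0.89), a transcription factor of excitatory neurons, Gad2 (-0.79), Gad1 (-0.62) and Slc32a1 (-0.52), which make and load GABA, and Tubb3 (-0.65), a neuronal tubulin. The sum of the 16 markers ranged from 1691 to 5366 CPM (mean 3657) without cocaine and from 1367 to 3975 CPM (mean 2831) with it. Of astrocyte, microglial, oligodendrocyte and endothelial markers 0 were called, with 9, 9, 10 and 8 genes tested, and the medians of these lists lay between -0.17 and 0.00. These medians average pairs that moved in opposite directions. All 9 microglial values were below 0 in the Tat pair (median -0.59) and the 4OI pair (-0.37). In the Tazemetostat and Senicapoc pairs 0 were below 0 (median 0.29 in each). All 10 oligodendrocyte values were below 0 in the Tazemetostat pair (median -0.58).

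The neuron markers and the 10 genes did not move in parallel in each pair. In the Tat pair the median was 0.19 for the neuron markers and -0.29 for the 10 genes, and in the Amlexanox pair -0.13 and -0.65. In the Tazemetostat pair it was -0.75 and -0.87, in the 4OI pair -0.70 and -1.20, and in the Senicapoc pair -0.69 and -1.69. The part of the neuron markers in the fall of the 10 genes was not tested.

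**Figure D4:**
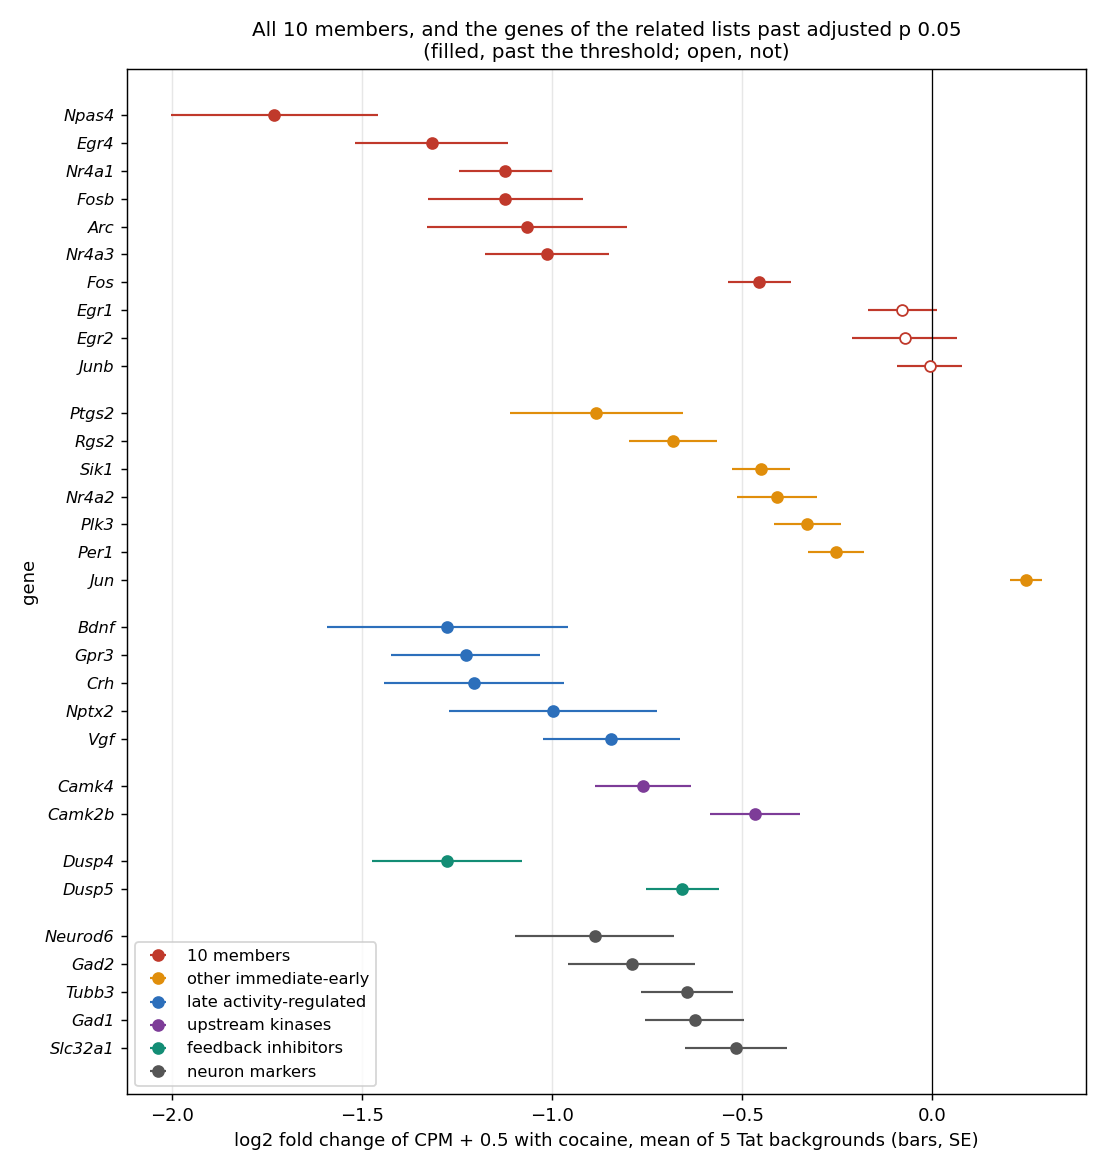
Log2 fold change with cocaine, mean of 5 pairs with Tat (horizontal axis, bars are SE), of the 10 immediate-early genes and of those genes in 5 related lists that had a limma adjusted p under 0.05. Filled points passed the threshold and open points did not. Jun is the one called gene to the right of 0, at 0.25.

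The genes outside the 10 whose pattern was most like theirs were sought by Pearson's r with the mean of the 10 over the 16 group means. The nearest were Alkal2 (r = 0.96), a ligand of the receptor kinase ALK, Gpr3 (0.96), Bdnf (0.96), AABR07052897.3 (0.96) and Dusp4 (0.95). B630019K06Rik (0.95), Pde10a (0.95), Osbpl10 (0.95), LOC102552805 (0.94) and Diras2 (0.94) followed. Within the 10, r with their mean, which is raised because the mean contains the gene itself, was 0.98 for Nr4a1, 0.97 for Npas4 and 0.96 for Egr4, Arc and Nr4a3, but 0.54 for Egr1 and -0.07 for Junb. These 16 points share the libraries and their depth, and no more than likeness of pattern is meant.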

How the data were processed

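Total RNA of 48 cultures had been sequenced as polyA libraries made with a directional kit. The submitters' processing notes name FastQC, Trim Galore 0.4.5, STAR 2.7.2, SAMtools 1.5 and featureCounts of Subread 1.5.3, and builds hg38 and mRatBN7.2, whereas the study's methods name another rat assembly, so that no coordinate was taken from the files. The values deposited by the authors are signal values, CPM after TMM normalisation. They sum to 930398.6 to 1046891.9 per library, and only 84.9% to 87.1% of low values came out as whole reads within 0.02 reads, so that no count model was used. Depth was 17.5 to 29.1 M reads per library.

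The 15890 genes that reached 0.5 CPM in 3 or more of the 48 libraries were tested with limma 3.58.1 in R 4.3.3 on log2(CPM + 0.5), with 1 mean per group over all 48 libraries, a variance trend and Benjamini-Hochberg adjustment over all tested genes. This fit is an analysis of normalised values, not of counts. A fold change on this scale understates that of low genes, and 0.5 CPM was 8.57 to 15.0 reads. Replicates were taken from the sample titles. No 2 libraries of a group agreed within counting noise (chi-square per degree of freedom 5.86 to 130.2 over 48 pairs). Same-numbered cultures were taken as paired where the 3 correlations of their deviations from the group means were over 0.1, which held in 8 of 23 comparisons and rests on the data, not on the labels. The alternatives were other pseudocounts, no filter, other scalings, fits to the compared groups alone, no variance trend, array quality weights, a replicate block and leaving out each library. Leaving out each pair of groups and 2 further block fits were added after the data were seen. The members, the gene lists and the tests were chosen with earlier results of these data known. Related lists were described by counts and medians. Members are all named, other genes where they were called in a list or were the 10 most like the members' mean pattern. Promoter sequences came from RefSeq (GRCr8). The result of 1 marker gene is not reported here.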

Additional observations from a re-analysis of the deposited data

How the results depend on the processing

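Over the 5 cocaine pairs with Tat, 7 genes fell in each of the 30 fits that left out 1 library (median from -1.10 to -0.98) and with other pseudocounts, filters, scalings, weights and blocks. Leaving out the Senicapoc pair gave 4. Genes called lower in all numbered 1319 with array quality weights, 737 with the replicate block, 764 with the block in the compared groups alone, 1058, 158, 128 and 67 without the Tat, Tazemetostat, 4OI and Senicapoc pairs, and 259 to 948 without 1 library. Junb, which was not called, changed sign to 0.033 without the Tat pair, to 0.0079 without the Senicapoc pair and in 10 of the 30 fits without 1 library (range -0.039 to 0.019), and Egr2 to 0.068 without the Senicapoc pair.

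For the other comparisons the larger moves in the count of the 10 genes called were as follows, and the cause was not tested. Smaller moves are not all listed. Unless a number for all genes stands beside it, a count in this section has no share of all genes to be set against. Such a count is not a result about the 10 genes. With array quality weights, genes called lower over the 5 cocaine pairs rose from 462 to 1319. A pseudocount of 0.1 CPM gave 1 for Cocaine alone and 1 for Tat added to 4OI, which was also 1 without the filter and 1 without the variance trend. A pseudocount of 2 CPM gave 1 for Senicapoc added to Tat, 1 for 4OI added to Tat-Cocaine and 1 for the difference of the cocaine effect with Senicapoc. Fits to the compared groups alone gave 0 for cocaine with Tat-Senicapoc, Tat alone, Tat added to 4OI, Amlexanox alone and 4OI added to Tat-Cocaine, 1 for 4OI alone, 2 for Tat added to Tazemetostat and 6 for Tazemetostat added to Tat-Cocaine. Array quality weights gave 4, 5 and 8 for cocaine with Tat-Tazemetostat, Tat-4OI and Tat-Senicapoc, 9, 9 and 3 for Tat added to Tazemetostat, 4OI and Senicapoc, 5 and 6 for 4OI and Senicapoc alone, 1 and 3 for 4OI and Senicapoc added to Tat, 6 and 4 for Tazemetostat and 4OI added to Tat-Cocaine, and 5 for the difference with Senicapoc. With these weights the median was -0.34 for 4OI added to Tat-Cocaine, and -0.22 and -0.40 for the differences of the cocaine effect with Tazemetostat and 4OI.

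The replicate block over 48 libraries gave 3 for cocaine with Tat-4OI (13 of all genes called) and 5 for Tazemetostat added to Tat-Cocaine (5786). It gave 1 each for Cocaine alone (95), 4OI added to Tat (3485), Senicapoc added to Tat (646) and the difference with Senicapoc. For cocaine with Tat-Senicapoc it added Egr4 (adjusted p = 0.021 in limma) and Nr4a3 (0.025), with 102 of all genes called. For Tat added to 4OI it added Egr1 (0.034), with 1426 of all genes called. A block of the compared groups gave 1 for Cocaine alone (212) and 5 for Amlexanox alone (1812). In paired comparisons the block changed no call other than those given with the cocaine effect in Tat-4OI cultures and with 4OI alone.

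Without 1 library the count ranged from 0 to 6 for Cocaine alone (median -1.29 to -0.45), 1 to 3 for 4OI alone, 1 to 5 for Tat added to Amlexanox, 0 to 1 for Tat added to Tazemetostat and to Senicapoc, 0 to 3 for Tat added to 4OI, 0 to 3 for Tazemetostat and 0 to 2 for 4OI added to Tat-Cocaine (median -0.94 to -0.45). The median difference of the cocaine effect with and without Tat ranged from -0.25 to 0.43. Rescaling moved the median of all genes by -0.07 to 0.05. Depth limits the low values of Npas4, with 3 to 593 reads per library.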
